A study of Mus musculus with 12 samples.

Results

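Transcripts of 33 genes for fatty acid uptake, lipolysis and oxidation were followed in mouse soleus, a muscle of the calf. The genes were taken by symbol from a fixed list, and all 33 were found among the 24539 genes of the count table and all 33 passed the filter on low counts that left 13886 tested genes. RNA was sequenced in 12 libraries from C57BL/6 mice kept on chow, in 4 groups of 3 libraries. The wild type (WT) controls carried floxed alleles of Dnmt3a, the gene of a de novo DNA methyltransferase, and the knockout (KO) mice are called MCK-Dnmt3a KO. Each genotype was sampled sedentary and after exercise. MCK usually stands for muscle creatine kinase, whose promoter is active in skeletal and heart muscle fibres, so that other cells of the muscle would keep Dnmt3a. The sources used here do not give how the mice were exercised, how long after exercise muscle was taken, or their age and sex.

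Slow muscle draws much of its energy from fat. Lipoprotein lipase frees fatty acids at the capillary wall, carriers bring them into the fibre, and acyl-CoA synthetase and the carnitine shuttle pass them into mitochondria, where the beta oxidation spiral cuts them down and hands electrons to the respiratory chain. Lipases release further fatty acids from droplets inside the fibre, and Pdk4, a kinase that switches off pyruvate dehydrogenase, spares glucose when fat is burned. Many of these genes are textbook targets of PPAR receptors, which bind repeats of the hexamer AGGTCA with the retinoid X receptor.

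Promoter sequences are shown for genes whose levels varied widely between libraries of a group (within-group SD of log2 level over 0.3), to show the region upstream of their start sites. The 7 genes past that SD are Angptl4, which has no entry in the promoter table used, and Pdk4, Ucp3, Acot2, Plin5, Lpin1 and Mlycd. RefSeq promoters on build GRCm38.p6 matched 26 of the 33 genes, with 31 promoters. Each sequence below holds the 250 bases before a transcription start, 5′ to 3′ on the gene's strand, and capitals mark AGGTCA. Ucp3 held the hexamer 2 times, Lpin1 and the upstream of the 2 listed Plin5 windows held it 1 time each, and the other Plin5 window and those of Pdk4, Acot2 and Mlycd did not hold it.
Ucp3, GRCm38.p6, chr7:100472741-100472990, plus strand: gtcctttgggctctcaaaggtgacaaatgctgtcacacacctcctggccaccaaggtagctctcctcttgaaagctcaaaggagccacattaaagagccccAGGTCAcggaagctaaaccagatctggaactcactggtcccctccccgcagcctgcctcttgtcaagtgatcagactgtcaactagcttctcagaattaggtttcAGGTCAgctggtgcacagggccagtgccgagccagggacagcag
Plin5, GRCm38.p6, chr17:56117549-56117798, minus strand: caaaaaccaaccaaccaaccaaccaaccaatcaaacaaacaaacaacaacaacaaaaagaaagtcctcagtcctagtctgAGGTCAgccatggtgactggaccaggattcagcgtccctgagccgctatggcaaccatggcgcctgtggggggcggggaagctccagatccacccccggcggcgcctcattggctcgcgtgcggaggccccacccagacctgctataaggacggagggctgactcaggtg
Plin5, GRCm38.p6, chr17:56117299-56117548, minus strand: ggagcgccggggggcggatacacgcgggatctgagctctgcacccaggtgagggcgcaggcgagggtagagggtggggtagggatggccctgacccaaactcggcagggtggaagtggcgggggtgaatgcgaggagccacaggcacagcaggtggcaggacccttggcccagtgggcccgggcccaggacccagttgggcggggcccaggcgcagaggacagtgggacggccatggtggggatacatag
Lpin1, GRCm38.p6, chr12:16610967-16611216, minus strand: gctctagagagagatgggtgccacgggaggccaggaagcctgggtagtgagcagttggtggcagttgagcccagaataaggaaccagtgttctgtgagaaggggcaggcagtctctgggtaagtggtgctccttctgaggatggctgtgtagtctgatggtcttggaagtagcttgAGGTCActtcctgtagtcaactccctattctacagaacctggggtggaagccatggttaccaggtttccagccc
Pdk4, GRCm38.p6, chr6:5496279-5496528, minus strand: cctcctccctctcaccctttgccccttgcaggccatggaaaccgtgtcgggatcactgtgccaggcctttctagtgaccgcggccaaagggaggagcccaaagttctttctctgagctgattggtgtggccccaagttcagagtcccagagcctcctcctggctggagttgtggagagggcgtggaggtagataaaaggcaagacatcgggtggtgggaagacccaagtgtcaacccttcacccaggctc
Acot2, GRCm38.p6, chr12:83987611-83987860, plus strand: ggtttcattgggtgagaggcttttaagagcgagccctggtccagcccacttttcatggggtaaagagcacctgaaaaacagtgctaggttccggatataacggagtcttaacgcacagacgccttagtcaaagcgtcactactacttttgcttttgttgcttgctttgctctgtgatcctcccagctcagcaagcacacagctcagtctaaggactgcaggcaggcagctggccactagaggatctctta
Mlycd, GRCm38.p6, chr8:119394644-119394893, plus strand: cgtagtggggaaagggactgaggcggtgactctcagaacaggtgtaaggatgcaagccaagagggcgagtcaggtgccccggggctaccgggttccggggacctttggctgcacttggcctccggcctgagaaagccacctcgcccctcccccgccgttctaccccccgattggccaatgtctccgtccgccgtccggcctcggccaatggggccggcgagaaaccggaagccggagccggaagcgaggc
Searched on both strands, AGGTCA stood in 7 of the 31 promoters (22.6%), those of Acadm, Acadvl, Cd36, Echs1, Lpin1, Plin5 and Ucp3, against 14% of 32851 RefSeq promoters of the same length. The full PPAR repeat AGGTCANAGGTCA stood in 0 of 31, against 0.0335% of all promoters, and the estrogen-related receptor site TNAAGGTCA, which contains the hexamer, in 0 against 1.14%. Among clock motifs, the E-box CACGTG stood in 2 (Lipe and Slc27a1, 6.45% against 6.02%) and the D-box TTATGTAA in 0 (against 0.819%). The glucocorticoid receptor hexamer AGAACA stood in 3 (Hadh, Lpin1 and Mlycd, 9.68% against 16.1%), the cyclic AMP element TGACGTCA in 0 (against 1.55%) and its core TGACG in 5 (Acadm, Acot2, Etfa, Etfdh and Fabp3, 16.1% against 17.8%). Pdk4 held none of these letters in this window. A match here describes letters and not a bound site, and no match says only that the letters are not in this window.

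Total counts ran from 13329547 to 15480960 per library, and the 33 genes took 1.35% to 2.01% of them. Dnmt3a stood at 48.6 to 60.5 CPM (counts divided by effective library size, with TMM factors) in the 6 KO libraries and at 113 to 180 CPM in the 6 WT libraries, and its log2 fold change was -1.57 in sedentary mice (SE 0.162, adjusted p = 0.00347, edgeR) and -1.21 after exercise (SE 0.161, adjusted p = 0.0334, edgeR). Libraries of a group are called a, b and c. Markers of slow and of fast fibres were both high. Myh7, the slow myosin heavy chain, stood at 7059 to 12453 CPM and Myh2, a fast one, at 8166 to 13998 CPM. The 7 slow fibre markers summed to 27003 to 41090 CPM and the 9 fast fibre markers to 38222 to 70368 CPM. KO sedentary b stood apart, with Myh4, the fastest myosin heavy chain, at 5505 CPM against 33.8 to 1741 CPM elsewhere. It had the lowest summed slow fibre markers (27003 CPM), and its 8 macrophage markers summed to 580 CPM against at most 197 CPM elsewhere. Liver markers, 9 of 10 of which were listed, summed to 323 CPM in WT exercise b, 314 CPM in WT exercise c, 505 CPM in KO sedentary b and at most 98.4 CPM elsewhere. The clock output gene Dbp ranged between 136 and 266 CPM in 5 libraries (WT sedentary b and c, KO sedentary a, WT exercise a and KO exercise a) and at 18.3 to 25.8 CPM in the other 7. The columns called WT exercise a and KO exercise a here are each named for 2 animals, and the sources used here do not say whether animals were pooled. Because this is whole muscle, fewer cells of a type and less RNA per cell cannot be told apart in any value below.

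Levels were compared between genes as CPM per kilobase of the longest principal transcript in GENCODE M21, a length chosen here since the authors' own annotation is not given. The highest mean level over the 12 libraries was that of Lpl (889 CPM per kilobase), followed by Fabp3, the cytosolic fatty acid carrier of slow and heart muscle (602 CPM per kilobase), and Pdk4 (421 CPM per kilobase). The long-chain acyl-CoA dehydrogenase Acadl (383), the triglyceride lipase Pnpla2 (353), the medium-chain dehydrogenase Acadm (336) and Hadha (300.3), the subunit of the mitochondrial trifunctional protein that hydrates and oxidises long chains, came next on this scale. Neighbours in this order overlapped in part, with Lpl between 686 and 994 and Fabp3 between 507 and 759 CPM per kilobase. At the low end stood Plin5 (28.9), Acot2 (17.1), Lipe (14.4) and Angptl4, a secreted inhibitor of lipoprotein lipase (3.55 CPM per kilobase). Per kilobase of all merged exons, Fabp3 came first (602) and Lpl 4th (349), so the order of the leading genes depends on the length used. Hadhb, the partner subunit of Hadha, stood at 46.5 CPM per kilobase of its longest principal transcript, and 69.7% of its transcript is shared at 95% identity or more with the processed pseudogene Gm13910. The same holds for 58% of Acot2 with Acot1 and 48.8% of Fabp3 with Fabp3-ps1, and the annotation has genes Gm44502 and Gm45233 on the same strand whose transcripts share 94.8% of Cpt1b and 70.1% of Etfb at full identity. The counts of Hadhb, Acot2, Fabp3, Cpt1b and Etfb are therefore uncertain. Shorter stretches are shared by Acadvl with Dvl2 (26.1%), Etfa with the pseudogene Gm15289 (17.5%) and Eci2 with Gm16984 (11.1%).

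Of the uptake genes, Lpl stood at 3806, 3439 and 3793 CPM in WT sedentary, 3278, 2825 and 3453 in KO sedentary, 4074, 3827 and 3864 in WT exercise and 3717, 3726 and 4089.7 in KO exercise libraries a, b and c. KO sedentary b was the lowest of the 12, and all 3 WT exercise libraries lay above all 3 WT sedentary ones. Cd36, the membrane fatty acid translocase, stood at 864, 886 and 974 CPM in WT sedentary, 859.8, 712 and 770.2 in KO sedentary, 756, 901 and 735 in WT exercise and 659.7, 755 and 774 in KO exercise. Every sedentary KO library lay below every sedentary WT library, while the exercised groups overlapped. Fabp3 ran from 417 to 624 CPM and Slc27a1, a fatty acid transport protein, from 159 to 266 CPM, both lowest in KO sedentary b.

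In fatty acid activation and the carnitine system, Acsl1, the main long-chain acyl-CoA synthetase of muscle, stood at 946, 1103 and 1295 CPM in WT sedentary, 1137, 746 and 862 in KO sedentary, 935, 1038 and 921 in WT exercise and 917, 841 and 886 in KO exercise. The exercised groups did not overlap, and the sedentary ones did. Crat, which buffers acetyl-CoA as acetylcarnitine, stood at 772, 863 and 904 CPM in WT sedentary, 853, 687 and 843 in KO sedentary, 850.4, 927 and 806 in WT exercise and 887, 813 and 899 in KO exercise, with overlap in every pairing. Cpt1b, the muscle carnitine palmitoyltransferase that gates entry into mitochondria, ran from 690 to 932 CPM, and Cpt2, its inner membrane partner, from 141 to 219 CPM. Mlycd, which degrades the Cpt1 inhibitor malonyl-CoA, ran from 87.8 to 201 CPM. All of Cpt1b, Cpt2, Crat, Acsl1 and Mlycd were lowest in KO sedentary b.

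Among the 12 beta oxidation genes, Hadha stood at 1204, 1230.3 and 1344 CPM in WT sedentary, 1272, 1047 and 1203 in KO sedentary, 1171, 1433 and 1080.2 in WT exercise and 1175, 1110.2 and 1205 in KO exercise. These groups overlapped throughout. Acadl stood at 713, 762 and 785 CPM in WT sedentary, 708, 641 and 679.6 in KO sedentary, 779.9, 804 and 669.7 in WT exercise and 769.5, 700.0 and 795 in KO exercise. The sedentary KO libraries lay below the sedentary WT ones. The other 10 genes (Acadvl, Acadm and Acads of the dehydrogenase step; Hadhb, Hadh, Echs1 and Acaa2 of the later steps; and Eci1, Eci2 and Decr1, which prepare unsaturated chains) spread little, their highest library being 1.29 to 1.64 times their lowest.

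Electrons leave this spiral through the flavoprotein Etfa and Etfb and through Etfdh, which passes them to ubiquinone. Etfdh stood at 369.9, 368 and 409.8 CPM in WT sedentary, 364, 344 and 353 in KO sedentary, 367, 407 and 335 in WT exercise and 392, 354 and 364 in KO exercise. Its sedentary KO libraries lay below its sedentary WT ones, and its exercised groups overlapped. Etfa ran from 212 to 306 CPM and Etfb from 182 to 244 CPM.

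Of the genes for lipid stores, Pnpla2, the lipase that takes the first fatty acid off a triglyceride, stood at 572, 691 and 852 CPM in WT sedentary, 699, 531 and 539.8 in KO sedentary, 732, 677 and 562 in WT exercise and 700.1, 508 and 552 in KO exercise, with overlap in every pairing. Plin5, a coat protein of droplets in oxidative tissue, was described after its values were seen, as were Lipe and Lpin1. Plin5 stood at 48.7, 79.2 and 103 CPM in WT sedentary and at 77.3, 29.3 and 46.3 in KO sedentary, against 43.3 to 58.1 CPM over the 6 exercised libraries. Lpin1, a phosphatidate phosphatase that is also a coactivator of fatty acid oxidation genes, stood at 309.6, 321 and 327 CPM in WT sedentary, 362, 257 and 293 in KO sedentary, 646, 281 and 492 in WT exercise and 456, 301 and 444 in KO exercise. The 4 highest Lpin1 libraries were all exercised, but WT exercise b and KO exercise b lay within the sedentary range.

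In fuel choice, Pdk4 stood at 1471, 1300.5 and 2739 CPM in WT sedentary, 2520.0, 727 and 1133 in KO sedentary, 496, 1932 and 2782 in WT exercise and 191, 988 and 1328 in KO exercise. The 2 lowest libraries were those named for 2 animals, and the highest was 14.6 times the lowest. Those 2 libraries, KO exercise a and WT exercise a, also had high Dbp (266 and 237 CPM, against 18.3 to 22.8 CPM in the other exercised libraries). Among the exercised libraries these traits cannot be told apart. Dbp was also high in KO sedentary a (153 CPM) and WT sedentary b and c (136 CPM each), none of them named for 2 animals. Pdk4 stood there at 2520.0, 1300.5 and 2739 CPM. A link of either trait to Pdk4 was not tested. Angptl4, chosen after its values were seen, had its 2 lowest values in the libraries named for 2 animals. These were 1.93 CPM in KO exercise a and 4.27 in WT exercise a, and its highest was 28.5 CPM in WT sedentary c. Ucp3, a mitochondrial carrier of muscle that follows fatty acid supply and was also chosen after its values were seen, stood at 60.9, 91.5 and 189 CPM in WT sedentary, 206, 45.8 and 46.8 in KO sedentary, 71.7, 78.2 and 106 in WT exercise and 37.8, 42.5 and 51.3 in KO exercise. All 3 exercised KO libraries lay below all 3 exercised WT libraries. Acot13, an acyl-CoA thioesterase, was the steadiest of the 33 genes, at 116, 121 and 128 CPM in WT sedentary, 119.8, 123 and 117 in KO sedentary, 132, 119 and 133 in WT exercise and 133, 124 and 137 in KO exercise.

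**Figure D1:**
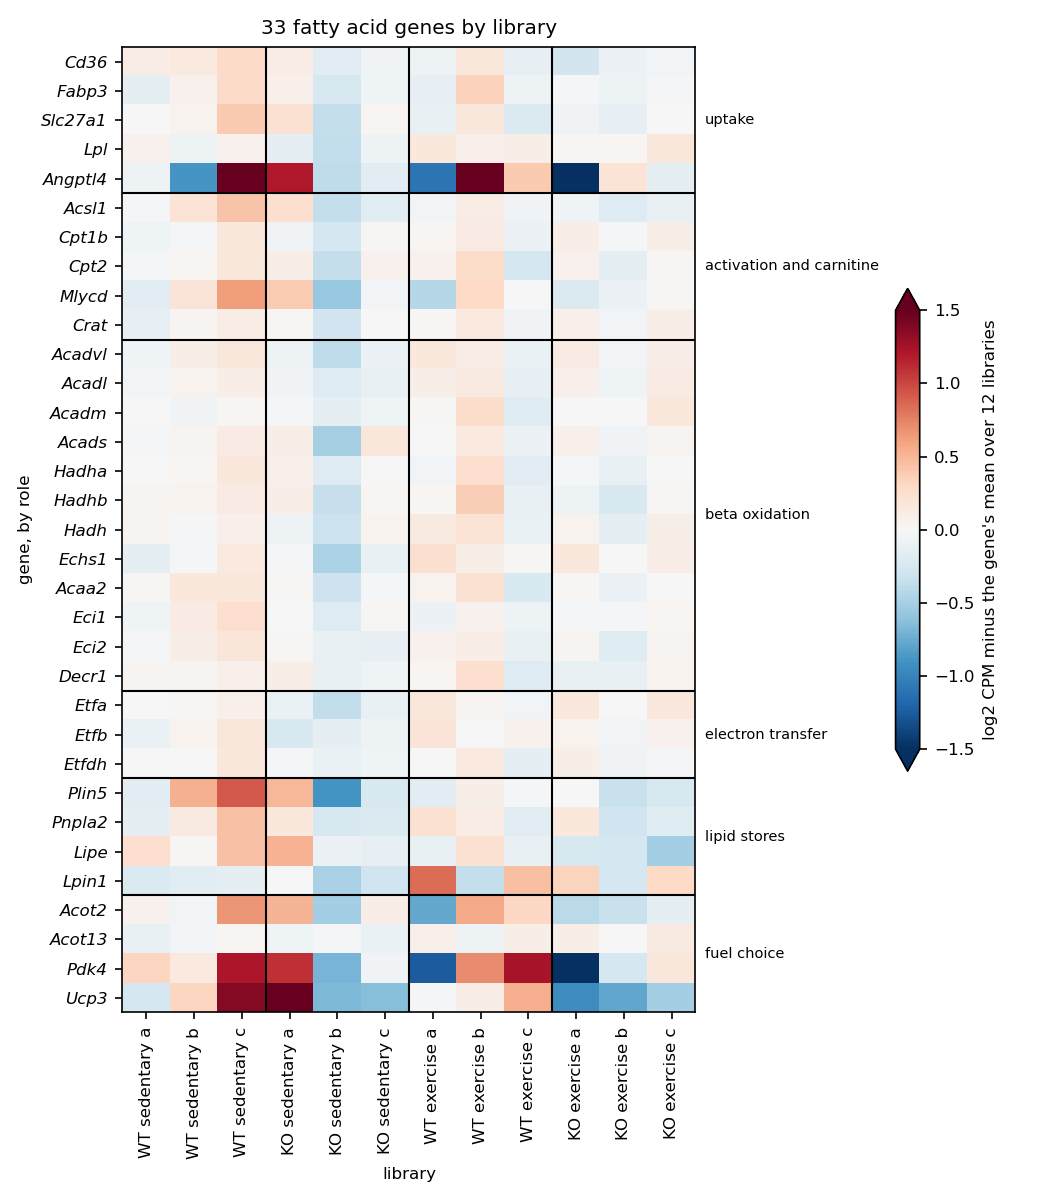
Each cell is the log2 CPM of 1 gene (rows, by role) in 1 library (columns, by group) minus that gene's mean over the 12 libraries, with the colour scale ending at 1.5 in either direction. KO sedentary b is low for nearly every gene, WT sedentary c is high, and the rows of Pdk4, Angptl4 and Ucp3 hold strongly coloured cells.

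The libraries differed as a whole within their groups. WT sedentary c held the highest value of its group for 32 of the 33 genes and KO sedentary b the lowest of its group for 29. KO sedentary a was highest for 26, WT exercise b for 23 and KO exercise c for 19, while WT sedentary a was lowest for 25, KO exercise b for 23 and WT exercise c for 21. Within groups the SD of log2 CPM had a median of 0.156 over the 33 genes, against 0.196 over all tested genes. The SD exceeded 0.3 for 7 genes, Angptl4 (1.19), Pdk4 (1.13), Ucp3 (0.77), Acot2 (0.48), Plin5 (0.46), Lpin1 (0.37) and Mlycd (0.36), against 29.4% of all tested genes, and was under 0.2 for 22.

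**Figure D2:**
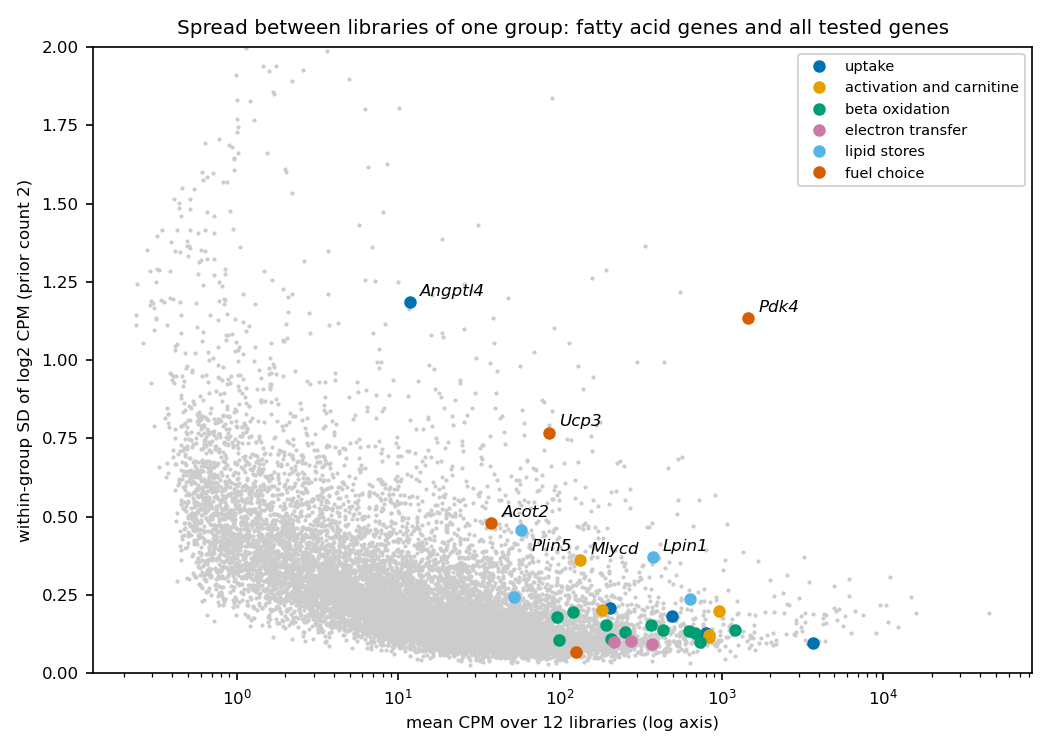
Each point is 1 tested gene, with its mean CPM over 12 libraries on a log axis and the SD of its log2 CPM within groups (prior count 2) on the vertical axis; fatty acid genes are coloured by role and other genes are grey. Most fatty acid genes lie below 0.25, Angptl4 and Pdk4 lie above 1, and 23 grey genes lie beyond the top of the axis.

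**Figure D3:**
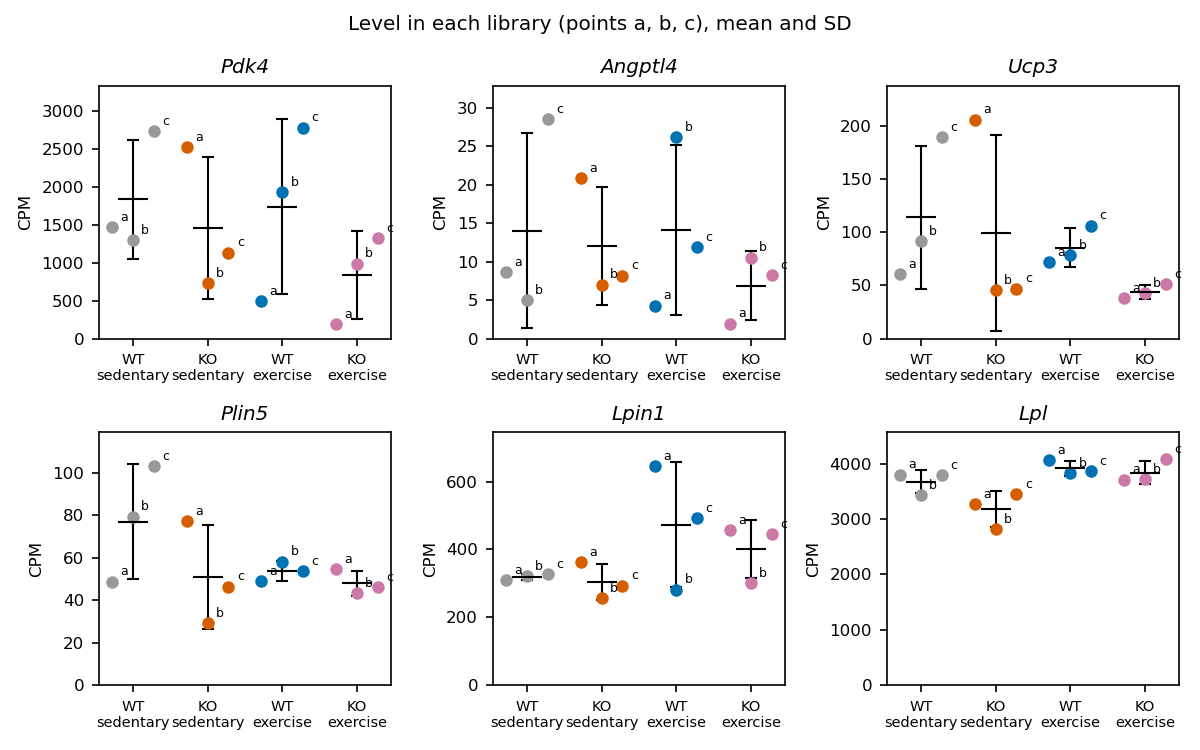
Each panel gives the CPM of 1 gene in each library (points labelled a, b and c), with the group mean as a bar and the SD over 3 libraries as whiskers. Pdk4 ranges from 191 to 2782 CPM with overlap between all groups, Ucp3 is lowest in the exercised KO group, and Lpl stays between 2825 and 4089.7 CPM.

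Whether loss of Dnmt3a alters the resting muscle's fatty acid genes was addressed by KO against WT in sedentary mice. All 33 genes had a negative log2 fold change, but 0 of the 33 passed an adjusted p of 0.05 in edgeR's quasi-likelihood test, with 0.0288% of all tested genes passing (4 of 13886). DESeq2 (0.144% of all tested genes called) and limma-voom (0.0216%) also called 0 of the 33, and in limma-voom 32 of the 33 were negative, with Angptl4 at 0.0099. The median of the 33 was -0.16, against 0.0026 over all tested genes, of which 49.3% were negative, and the range ran from -0.59 for Plin5 (SE 0.335) to -0.02 for Acot13 (SE 0.0738). The smallest adjusted p was 0.986. Without adjustment 4 genes were under 0.05, all negative, against 4.83% of all tested genes: Acadvl, the very long chain dehydrogenase (-0.24, SE 0.107), Etfa (-0.22, SE 0.0905), Lpl (-0.21, SE 0.0958) and Etfb (-0.19, SE 0.0875). Groups did not overlap for 5 genes, Cd36, Acadvl, Acadl, Etfa and Etfdh, all lower in KO, against 10.4% of all tested genes in either direction.

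By role, the sedentary medians were -0.21 for uptake, -0.13 for activation and the carnitine system, -0.15 for beta oxidation, -0.19 for electron transfer, -0.19 for lipid stores and -0.18 for fuel choice. Of the genes given in every library, the log2 fold changes were -0.22 for Cd36 (SE 0.107), -0.28 for Acsl1 (SE 0.147), -0.09 for Crat (SE 0.103), -0.10 for Hadha (SE 0.112), -0.16 for Acadl (SE 0.0906), -0.11 for Etfdh (SE 0.0859), -0.26 for Pnpla2 (SE 0.171) and -0.33 for Pdk4 (SE 0.782). The 95% intervals of 24 genes lay within a 1.5-fold change either way. Those of Angptl4, Acsl1, Mlycd, Plin5, Pnpla2, Lpin1, Acot2, Pdk4 and Ucp3 reached past it. Leaving out KO sedentary b moved the median to -0.05 and left 26 of 33 genes negative, and leaving out WT sedentary c moved it to -0.06 with 28 negative. Fast fibre, macrophage and liver markers stood apart in KO sedentary b. In WT sedentary c these lists summed to 52410.5, 167 and 23.1 CPM, within the range of the other libraries. The 4 erythrocyte markers summed to 134, 326 and 362 CPM in KO sedentary a, b and c against 114 to 158 CPM in the sedentary WT libraries. The 10 endothelial markers summed to 967 to 1053 CPM against 1067 to 1135 CPM. Single endothelial markers did overlap, such as Cdh5 (252 to 333 CPM in KO, 300 to 311 CPM in WT). The part of these cells in the result was not tested.

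**Figure D4:**
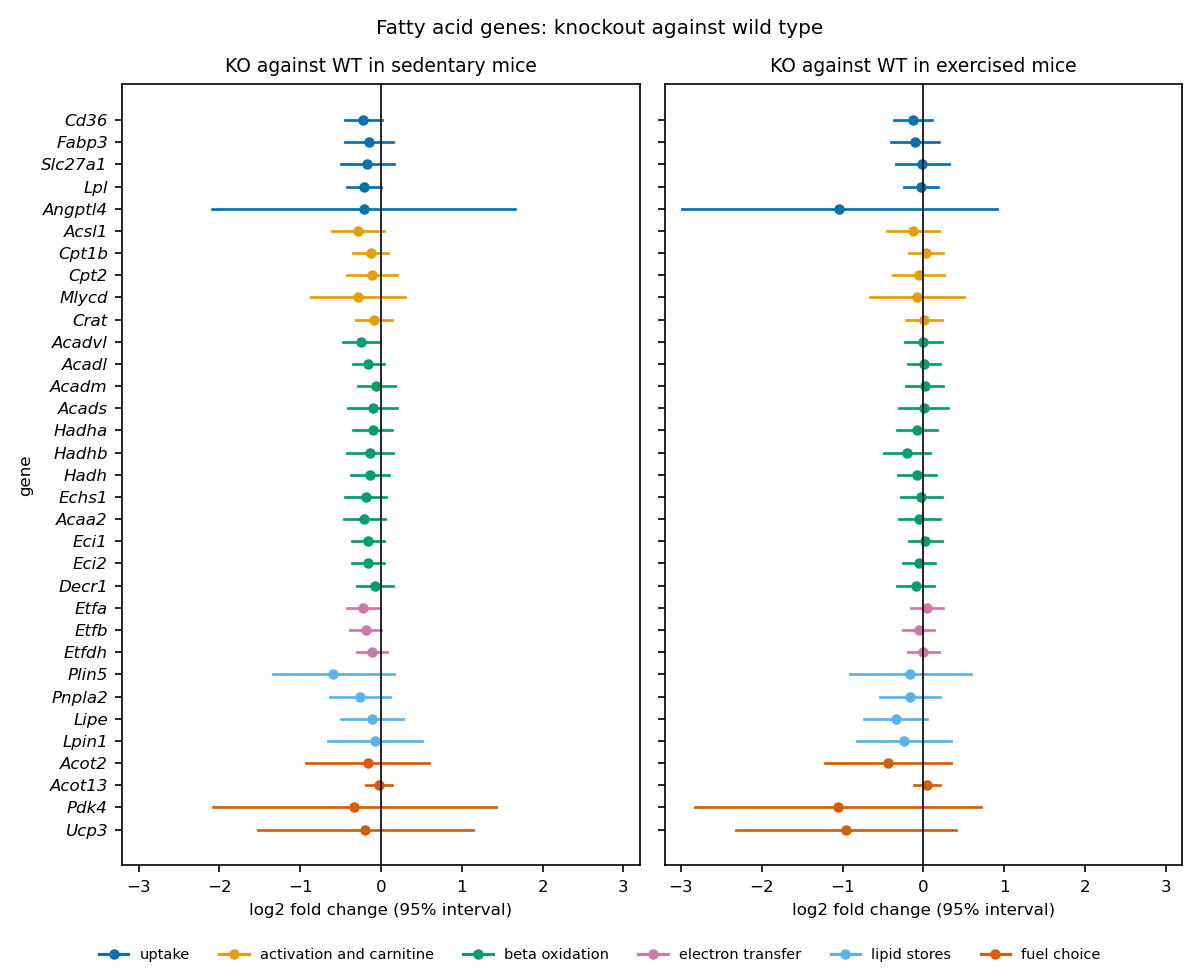
Points are log2 fold changes of KO against WT and lines their 95% intervals, in sedentary mice (left) and exercised mice (right), coloured by role. All 33 points on the left lie below 0 with a median of -0.16, 10 of 33 on the right lie above it, and the widest intervals belong to Angptl4, Pdk4 and Ucp3.

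KO against WT after exercise asked the same of exercised muscle. Log2 fold changes were negative for 23 genes and positive for 10, with a median of -0.06 against -0.01 over all tested genes, and 0 of 33 passed the adjusted threshold in edgeR, DESeq2 or limma-voom, where 0.0216%, 0.0648% and 0.0216% of all tested genes passed. None of the 33 was under an unadjusted 0.05, against 3.38% of all tested genes. The largest values were -1.06 for Pdk4 (SE 0.79, 95% interval -2.83 to 0.72), -1.04 for Angptl4 (SE 0.87, interval -2.99 to 0.91) and -0.96 for Ucp3 (SE 0.606, interval -2.32 to 0.40). Mean Pdk4 was 836 ± 583 CPM in exercised KO and 1737 ± 1156 CPM in exercised WT muscle (SD, n = 3 each), so the difference lay within the spread between libraries. Groups did not overlap for Acsl1, Lipe, the hormone-sensitive lipase, and Ucp3, all lower in KO, against 7.16% of all tested genes. The 10 endothelial markers summed to 644 to 845 CPM in exercised KO and 852 to 922 CPM in exercised WT libraries, and the 9 listed liver markers to 16.0 to 18.3 CPM and 24.6 to 323 CPM. Neither sum overlapped between the genotypes. In WT exercise a, however, Cyp2e1 made up 20.6 of the 24.6 CPM of the liver list. Alb, at 0.402 CPM there, lay below KO exercise c (6.04 CPM), so single liver markers did overlap. Single endothelial markers overlapped too, such as Cdh5 (166 to 241 CPM in KO, 226 to 253 CPM in WT) and Kdr (58.1 to 100 and 50.6 to 107 CPM). The part of either list in the result was not tested. The 12 beta oxidation genes had a median of -0.04, with 5 positive, and the 3 electron transfer genes ran from -0.06 to 0.04. Intervals of 25 genes lay within 1.5-fold. The median ran from -0.16 without WT exercise c to -0.01 without WT exercise b.

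Averaged over both conditions, KO against WT was negative for 32 of the 33 genes, Acot13 being the exception at 0.01, with a median of -0.12 against -0.01 over all tested genes. In edgeR 0 of 33 were called, with 0.0576% of all tested genes called, and DESeq2 (0.238% of all called) and limma-voom (0.0576%) also called 0. Cd36 alone was under an unadjusted 0.05 (-0.17, SE 0.0755), against 4.5% of all tested genes. The median without KO sedentary b was -0.08. This average holds the same libraries as the comparisons within each condition and is no separate evidence.

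Exercise against sedentary in WT mice gave no called gene among the 33 in edgeR, DESeq2 or limma-voom, which called 0.0216%, 0.879% and 0.0144% of all tested genes. The 33 split into 22 negative and 11 positive, with a median of -0.02 against 0.0041 over all tested genes, and 0 were under an unadjusted 0.05, against 9.41% of all tested genes. Lpin1 had the largest positive value, 0.57 (SE 0.264, 95% interval -0.02 to 1.15), at 473 ± 183 CPM in exercised and 319 ± 9.07 CPM in sedentary WT muscle (SD, n = 3 each). Plin5 had the largest negative value, -0.52 (SE 0.335). Lpl was the only gene whose groups did not overlap, higher after exercise, against 15.3% of all tested genes. The endothelial markers summed to 852 to 922 CPM in the exercised and 1067 to 1135 CPM in the sedentary WT libraries, without overlap. Single markers did overlap, such as Flt1 (87.2 to 148 CPM exercised, 92.6 to 95.8 CPM sedentary). The part of these markers was not tested. The median turned positive without WT exercise c (0.05) or without WT sedentary c (0.05).

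Exercise against sedentary in KO mice also gave 0 called genes among the 33 in edgeR, where 0% of all tested genes were called, and 0 in DESeq2 and limma-voom, which called 2.59% and 0% of all tested genes. The smallest adjusted p was 0.167 in edgeR, for Etfa. Under an unadjusted 0.05 were 5 genes, against 17.9% of all tested genes: Etfa (0.29, SE 0.0905), Echs1, the enoyl-CoA hydratase for short chains (0.28, SE 0.117), Lpl (0.27, SE 0.0958) and Acadvl (0.24, SE 0.107) with positive values, and Lipe with a negative one (-0.46, SE 0.177). Groups did not overlap for 8 genes against 22.7% of all tested genes: Lpl, Acadvl, Acadm, Echs1, Etfa, Etfb and Acot13 were higher in every exercised library and Lipe was lower. Ucp3 had the largest negative value, -1.18 (SE 0.607), and Pdk4 and Angptl4 stood at -0.80 each (SE 0.786 and 0.871). All 3 electron transfer genes and 9 of 12 beta oxidation genes were positive, and the median of the 33 was 0.04 against -0.01 over all tested genes. Without KO sedentary b, the lowest sedentary library for most of these genes, the median was -0.04. The 10 endothelial markers summed to 644 to 845 CPM in the exercised and 967 to 1053 CPM in the sedentary KO libraries. The 10 adipocyte markers summed to 50.03 to 174 and 179 to 253 CPM. Neither sum overlapped, but single markers of both lists did. Flt1 of the endothelial list stood at 86.1 to 105 and 78.7 to 101 CPM. Thrsp of the adipocyte list stood at 12.1 to 23.6 and 15.3 to 16.6 CPM. Cfd made up 94.5 of the 174 CPM of adipocyte markers in KO exercise b. The 7 slow fibre markers summed to 37198 to 40438 CPM in the exercised KO libraries and 27003 to 33679 CPM in the sedentary KO ones, without overlap. Lpl and Cd36 are also made by endothelium or fat, and Lipe by fat, and the part of these fibres and cells in the values was not tested.

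**Figure D5:**
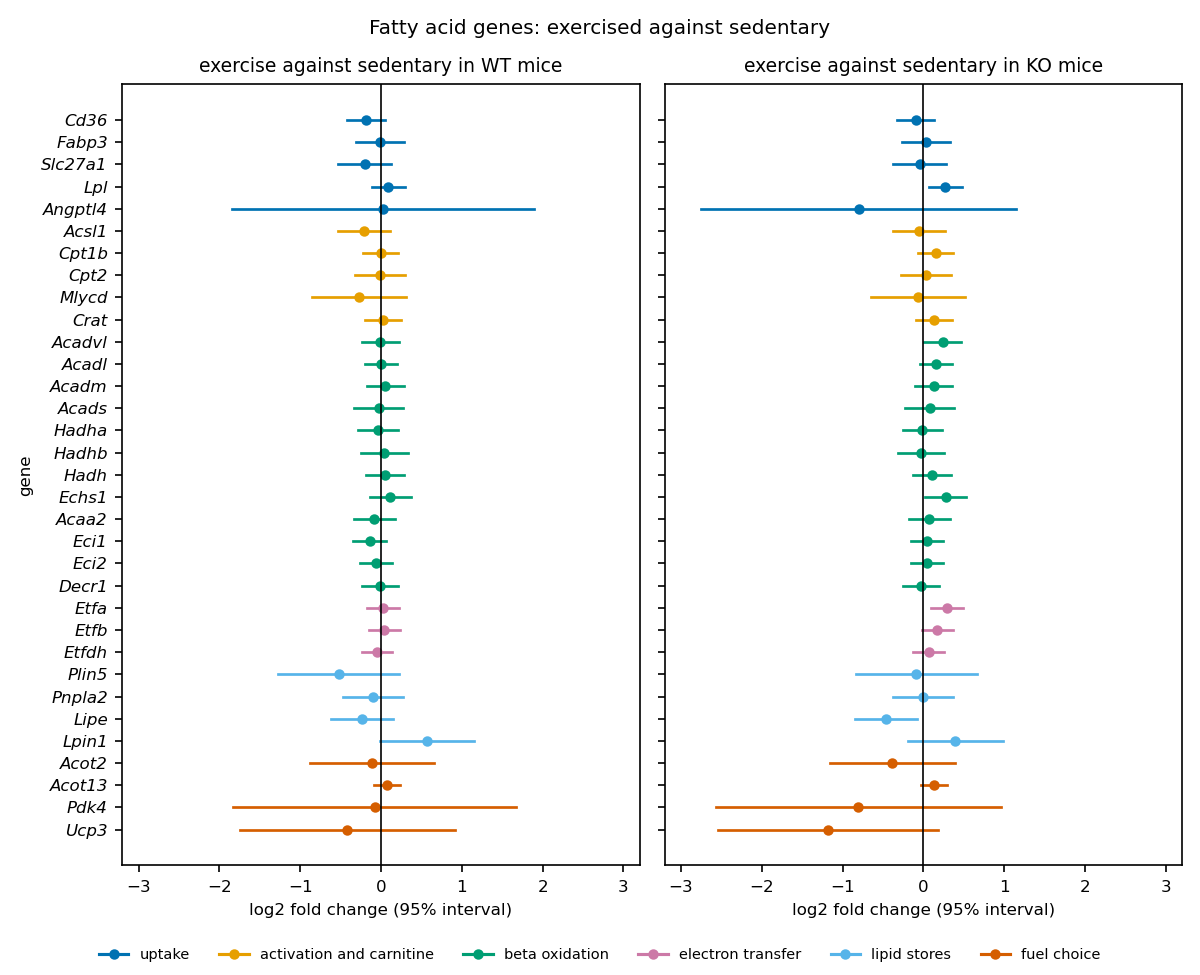
Points are log2 fold changes of exercise against sedentary and lines their 95% intervals, in WT mice (left) and KO mice (right), coloured by role. Most beta oxidation and electron transfer genes sit close to 0 in WT and slightly above it in KO, with Etfa at 0.29, Lipe lies below 0 in both, and Lpin1 lies above 0 in both.

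Averaged over both genotypes, exercise against sedentary was the comparison with the most calls in the table as a whole, 322 genes or 2.32% of those tested (89 higher, 233 lower), and 0 of the 33 were among them in edgeR. By unadjusted p, 5 genes were under 0.05 against 22.8% of all tested genes. Lpl was 0.18 (SE 0.0677, adjusted p = 0.149, edgeR), Echs1 0.20 (SE 0.0828, adjusted p = 0.187, edgeR), Etfa 0.16 (SE 0.064, adjusted p = 0.173, edgeR) and Lpin1 0.48 (SE 0.187, adjusted p = 0.169, edgeR). Lipe was -0.35 (SE 0.125, adjusted p = 0.137, edgeR). DESeq2 called 7.29% of all tested genes and 1 of the 33, Lpl (0.19, adjusted p = 0.0477), whose adjusted p ran from 0.0477 to 0.307 over the alternatives, and limma-voom called 0 of the 33 and 2.28% of all tested genes. Without WT exercise b edgeR called 3.19% of all tested genes and 1 of the 33, Lpin1 (0.62, adjusted p = 0.0329), whose adjusted p ran from 0.0329 to 0.393 over the alternatives. The 33 split into 17 positive and 16 negative, with a median of 0.0046 against 0.00034 over all tested genes.

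The interaction of genotype and exercise tested whether the response to exercise differed between genotypes. In edgeR 0 of 33 passed, as did 0% of all tested genes, 0 were under an unadjusted 0.05 against 3.1% of all tested genes, and DESeq2 (0.158% of all tested genes called) and limma-voom (0%) also called 0 of 33. Values were positive for 25 genes and negative for 8, with a median of 0.10 against -0.01 over all tested genes, and the intervals of 22 lay within 1.5-fold. The median ran from 0.02 without KO sedentary b to 0.16 without WT exercise b. Intervals of Slc27a1, Angptl4, Acsl1, Mlycd, Plin5, Pnpla2, Lipe, Lpin1, Acot2, Pdk4 and Ucp3 reached past 1.5-fold.

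The 4 further lists gave the rest of the pathway, and in each genotype comparison and in each exercise comparison within a genotype edgeR called 0 of their genes. Tested were 37 of 39 other genes of beta oxidation and the carnitine shuttle, 20 of 21 other genes of uptake and activation, 27 of 27 other genes of droplets, lipolysis and triglyceride synthesis, and 35 of 36 regulators of fatty acid use. In the exercise average over genotypes, 2 genes of these lists passed, where 2.32% of all tested genes passed (322 of 13886). The 2 calls are not read as a trait of the lists. Nr4a3, an orphan nuclear receptor that responds early to contraction, rose after exercise (2.48, SE 0.512, adjusted p = 0.0444, edgeR), at 27.0, 31.7 and 104 CPM in WT exercise and 13.8, 35.6 and 90.4 in KO exercise against 6.46 to 13.6 CPM in the 6 sedentary libraries. All 6 exercised libraries lay above all 6 sedentary ones. Acsf2, an acyl-CoA synthetase family member, fell by 0.56 on the log2 scale (SE 0.125, adjusted p = 0.0416, edgeR), at 13.0, 17.1 and 10.4 CPM in WT exercise and 13.2, 10.5 and 11.4 in KO exercise against 14.3 to 22.4 CPM in the sedentary libraries. In sedentary mice the KO against WT medians of these lists were -0.05, 0.04, -0.03 and -0.02 in the order given, beside -0.16 for the 33 genes and 0.0026 for all tested genes. The median of the 33 was -0.05 without KO sedentary b and -0.06 without WT sedentary c. The lists were not recomputed without these libraries, so a difference from the 33 genes cannot be read from these medians.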

How the data were processed

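RNA of mouse soleus was analysed in 12 libraries from 1 table of whole-number counts per gene that the authors deposited for the series; its 12 other per-sample columns were not used. STAR, featureCounts and mm10 are named in the submitters' processing notes, without a role; the sources used here do not give the annotation, the read length or strand use. Per the labels' protocols, RNA was extracted with Trizol and a column kit and sequenced on a BGISEQ instrument. Columns name genotype and condition but no labelled replicate, so each was assigned to its group only, and libraries are a, b and c in column order.  The labels give 3 replicates a group without saying that each is 1 mouse, and p-values measure only the spread between these libraries. Libraries of a group differed by more than sampling noise (chi-square per gene 8.73 to 51.9), which does not show that they came from different mice. Each was counted as 1 replicate.

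Genes were filtered with filterByExpr (minimum count 10), scaled with TMM factors and fitted with edgeR 4.0.16 (R 4.3.3; glmQLFit, robust, 1 mean per group over all 12 libraries). The 7 comparisons were tested with glmQLFTest and p-values adjusted by Benjamini and Hochberg over 13886 genes, with a threshold of 0.05. CPM were computed from the counts with the TMM factors and divided, between genes, by the longest transcript with an APPRIS principal tag in GENCODE M21. Each SE was computed as the absolute log2 fold change divided by the square root of the F statistic of glmQLFTest. Intervals rest on this SE, cover 95% and use the total degrees of freedom. DESeq2 1.42.0, limma 3.58.1 with voom, other scalings and filters, Dbp as a covariate and each library left out were alternatives. The script was checked on simulated counts. Shared transcript stretches were found with blastn 2.17.0 in GENCODE transcripts (95% identity, at least 100 bases and 10% of the transcript, the last limit set after seeing the matches). Motifs were searched in RefSeq promoters.

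The 33 genes and all lists were chosen with earlier results of these data known. Values in every library are given for the genes with the largest mean counts of each role, 1 or 2 a role, and other genes were picked after their values were seen. From the further lists, genes past the threshold are named. Reads of exon-overlapping genes on the opposite strand cannot be told apart without strand: Fabp3, Acsl1, Acadvl, Hadha, Echs1, Eci2, Etfdh, Lipe and Crat have such a neighbour.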

Additional observations from a re-analysis of the deposited data

How the results depend on the processing

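Over all alternatives (22, or 21 for averages and the interaction), 0 of the 33 genes were called in every comparison except the exercise average, where DESeq2 called 1 (Lpl) and edgeR without single libraries called 0 to 1 (Lpin1, without WT exercise b). The setting named for liver RNA left out libraries whose summed liver markers passed 10 times the median. Only KO sedentary b did, while WT exercise b (323 CPM) and WT exercise c (314 CPM) stayed in. The setting is thus the same fit as that without KO sedentary b, counted again among the alternatives. In it the median of KO against WT in sedentary mice was -0.05, that of exercise in KO mice -0.042 and that of the exercise average -0.052. The exercise average, whose median is 0.0046, was also -0.011 with a minimum count of 50 and -0.021 with upper quartile scaling. Leaving out single libraries, the medians ran from -0.24 (without WT sedentary a) to -0.05 (without KO sedentary b) for KO against WT in sedentary mice, from -0.042 (without KO sedentary b) to 0.14 (without KO sedentary a) for exercise in KO, from -0.12 (without WT exercise b) to 0.051 (without WT sedentary c; 0.046 without WT exercise c) for exercise in WT and from -0.059 (without WT exercise b) to 0.042 (without WT exercise c) for the exercise average. The sign of the last also turned without KO exercise a (-0.0047), KO exercise c (-0.01), KO sedentary b (-0.052) or WT sedentary a (-0.02). The cause was not tested.

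Of the single genes in sedentary KO against WT, leaving out single libraries gave Crat -0.16 (without WT sedentary a) to 0.0027 (without KO sedentary b), Acot13 -0.060 (without WT sedentary a) to 0.013 (without WT sedentary c) and Pdk4 -0.99 (without KO sedentary a) to 0.075 (without WT sedentary c). The interaction of Ucp3, -0.77 with all libraries, ran from -1.35 (without WT sedentary c) to 0.34 (without KO sedentary a). Dnmt3a kept its call in 21 of 22 alternatives in sedentary mice (adjusted p up to 0.0539, without KO sedentary c), in 11 of 22 after exercise (up to 0.341) and in 21 of 21 averaged, negative in all of them. In the exercise average Acsf2 kept its call in 11 of 21 alternatives and Nr4a3 in 9 of 21, both with adjusted p up to 0.11 and the same sign. No paired analysis was possible because the count columns carry animal numbers that match no replicate number of the labels. Angptl4 (28 to 425 counts a library), Pdk4 and Ucp3 had the largest SD within groups of the 33. The parts of depth and of spread between libraries in it were not separated.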
